A study of Mus musculus with 3 samples.

Results

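The genes described here encode 6 chemoattractant receptors that guide B cells into and around the lymphoid follicle, namely Cxcr5, Cxcr4, Ccr7, Ccr6, Gpr183 and Cxcr3. They were taken by gene name from the 27088 genes of a table of RNA sequencing of spleen B cells. All 6 were found, each under a single identifier. The mice were female BALB/c animals aged 13 weeks. In the PBS and SJMHE1 groups allergic rhinitis was induced with 10 μg ovalbumin (OVA) in 2 mg alum, given into the peritoneum on days 0, 7 and 14, followed by intranasal challenge with 100 μg OVA between days 21 and 35. On days 0, 14 and 28 the PBS group was injected under the skin with PBS. The SJMHE1 group was injected at the same times with 10 μg of SJMHE1, a peptide derived from the blood fluke Schistosoma japonicum, emulsified in incomplete Freund's adjuvant. The PBS group received no such adjuvant, so peptide and adjuvant cannot be told apart. B cells were sorted from the spleen on day 36, and material of 3 mice was mixed into 1 library per group. The normal Control group of the study was not analysed here.

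All 6 proteins are receptors with 7 membrane-spanning helices that signal mainly through inhibitory G proteins, and B cells move along gradients of their ligands. CXCR5 binds CXCL13 made by follicular stromal cells and draws B cells into the follicle. CCR7 binds CCL19 and CCL21 and draws cells toward the T cell zone, and GPR183, also called EBI2, responds to oxysterols and holds activated B cells at the outer follicle. CXCR4 binds CXCL12, a cue of bone marrow, of the red pulp and of the dark zone of germinal centres. CCR6 binds CCL20 and is carried by mature and memory B cells, whereas CXCR3 binds interferon-induced chemokines and is found on activated T cells, NK cells and some activated B cells.

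The values are FPKM, read fragments scaled by transcript length and library size, which allow levels to be compared between genes, and the whole-number read counts behind them. Summed over all genes, 48267168 counts were deposited for PBS and 51280237 for SJMHE1. With 1 pooled library per group no test across replicates could be made and no p-value was computed. Ratios are given on the log2 scale as SJMHE1 over PBS, computed from FPKM, each with a 95% interval derived from its read counts. Such an interval holds counting error alone and leaves out the spread between mice and between sorts. The markers of the labelled cell type were high in both libraries. Ms4a1, which encodes CD20, had an FPKM of 183 under PBS and 210 under SJMHE1. The T cell gene Cd3e had 1.77 and 0.39. In bulk RNA, fewer cells of a type and less RNA per cell cannot be told apart.

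The sequence around the start of transcription is shown for 3 receptors, those with the highest ratio, the highest level and the lowest ratio. RefSeq promoter windows on GRCm38.p6, from 250 bases before to 50 bases after a start, were found for 4 of the 6 genes, and Cxcr5 and Ccr7 had no entry. The windows are printed 5′ to 3′ on the strand of the gene. Capitals mark matches on either strand to the octamer ATTTGCAT, the GC box GGGCGG, the E-box CACGTG, the AP-1 motif TGANTCA or the CRE motif TGACGTCA. The first window lies at chr17:8235793-8236092 on the plus strand, the second at chr1:128592250-128592549 on the minus strand and the third at chrX:101734098-101734397 on the minus strand.
Ccr6: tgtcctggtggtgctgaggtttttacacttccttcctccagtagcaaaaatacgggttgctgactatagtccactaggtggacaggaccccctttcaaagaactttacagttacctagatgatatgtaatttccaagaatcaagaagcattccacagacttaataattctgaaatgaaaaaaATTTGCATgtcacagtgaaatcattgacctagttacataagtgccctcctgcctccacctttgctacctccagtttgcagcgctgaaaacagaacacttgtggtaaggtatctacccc
Cxcr4: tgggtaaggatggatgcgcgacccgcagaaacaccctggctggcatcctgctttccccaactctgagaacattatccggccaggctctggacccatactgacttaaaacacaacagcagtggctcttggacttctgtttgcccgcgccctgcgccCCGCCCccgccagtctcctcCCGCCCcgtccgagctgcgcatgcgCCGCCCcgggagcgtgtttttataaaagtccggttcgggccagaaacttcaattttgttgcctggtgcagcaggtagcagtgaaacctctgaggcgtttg
Cxcr3: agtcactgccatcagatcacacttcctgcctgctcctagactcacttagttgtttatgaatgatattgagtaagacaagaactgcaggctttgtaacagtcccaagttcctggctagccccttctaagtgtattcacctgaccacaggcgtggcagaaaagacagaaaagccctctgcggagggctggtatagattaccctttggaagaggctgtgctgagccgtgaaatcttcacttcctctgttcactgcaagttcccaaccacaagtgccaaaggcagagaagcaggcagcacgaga
The Ccr6 window held the octamer, a motif recognized by the B cell factor Oct-2 and its coactivator OBF-1, with its first base at position -68 relative to the start. The octamer was present in 1.74% of the 32851 promoter windows of the same length. The motifs were chosen after the sequences were read, so such shares do not measure how unusual a match is. The Cxcr4 window held 3 GC boxes, at positions -95, -75 and -50, and GC boxes were present in 35.7% of all windows. The Cxcr3 window, the Gpr183 window and a second Ccr6 window at chr17:8242276-8242575 held none of these letters. These matches describe the letters of the reference, and binding was not measured.

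Cxcr4 was the most abundant of the receptors in both libraries. The gene (ENSMUSG00000045382) occupies chr1:128588199-128592293 of GRCm38, minus strand. Its FPKM was 183 under PBS (18175 counts) and 163 under SJMHE1 (17107 counts). Only 206 genes of the table had a higher FPKM than Cxcr4 in the PBS library, and 230 did in the SJMHE1 library. The log2 ratio was -0.17, with an interval from -0.20 to -0.14, which put the SJMHE1 library at 88.9% of the PBS level. With the libraries scaled to equal FPKM sums the ratio was -0.087, outside that interval.

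Ccr7 was the second most abundant receptor in each library and showed the largest difference in level. The gene (ENSMUSG00000037944) occupies chr11:99144196-99155077, minus strand. Its FPKM was 142 under PBS (15396 counts) and 80.5 under SJMHE1 (9249 counts), a difference of -61.3. The log2 ratio was -0.82, with an interval from -0.85 to -0.78, so that the SJMHE1 library held 56.8% of the PBS level. Of the 4143 well-expressed genes, meaning those at FPKM 10 or more in both libraries, 40 or 0.97% had a lower ratio than Ccr7.

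Cxcr5, the receptor that defines entry into the follicle, had almost the same level in the 2 libraries. The gene (ENSMUSG00000047880) occupies chr9:44511787-44561877, minus strand. Its FPKM was 66.1 under PBS (12092 counts) and 67.1 under SJMHE1 (12996 counts). The log2 ratio was 0.02, with an interval from -0.01 to 0.06 that includes 0. Scaling the libraries to equal FPKM sums gave 0.10.

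Gpr183 was lower in the SJMHE1 library and Ccr6 was higher there. Gpr183 (ENSMUSG00000051212), at chr14:121952551-121965195 on the minus strand, had an FPKM of 55.4 under PBS (8773 counts) and 43.0 under SJMHE1 (7213 counts). Its log2 ratio was -0.36, with an interval from -0.41 to -0.32. A lower ratio was found for 232 of the 4143 well-expressed genes and for 1772 of the wider set of 12433. Ccr6 (ENSMUSG00000040899), at chr17:8236043-8257141 on the plus strand, had an FPKM of 31.0 under PBS (3948 counts) and 41.0 under SJMHE1 (5534 counts). Its log2 ratio was 0.41, with an interval from 0.35 to 0.46, which is a level 1.32 times that of the PBS library. A higher ratio was found for 144 of the 4143 genes and for 1212 of the 12433. The 2 genes thus lay at FPKM values of 43.0 and 41.0 in the SJMHE1 library, with overlapping counting intervals from 42.0 to 44.0 for Gpr183 and from 39.9 to 42.1 for Ccr6.

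Cxcr3 was scarce in both libraries. The gene (ENSMUSG00000050232) occupies chrX:101731535-101734269, minus strand. Its FPKM was 1.34 under PBS (128 counts) and 0.67 under SJMHE1 (68 counts). The ratio of these values on the log2 scale is -1.0, with a counting interval from -1.45 to -0.56. With a pseudocount of 1 added to both values it was -0.49. Since the FPKM values are rounded to 2 decimals, the ratio could lie anywhere between -1.02 and -0.98. From the whole-number counts, scaled by their totals, the ratio was -0.9999. The counting interval is far wider than the range from rounding and holds -1. Whether Cxcr3 was past the threshold of 1 thus cannot be told. At the printed values it sits on the threshold and was counted as not past it.

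**Figure D1:**
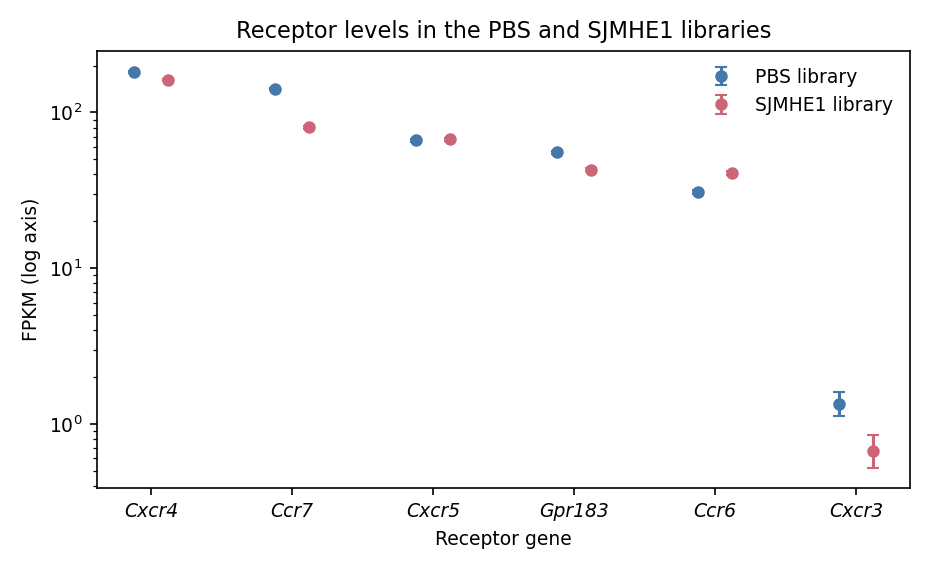
FPKM of the 6 receptor genes on a log axis, with a blue point for PBS and a red point for SJMHE1. Bars are 95% Poisson intervals of the counts, most of them smaller than the points. Ccr7 is at 142 under PBS and 80.5 under SJMHE1, Ccr6 is higher at 41.0 against 31.0, and Cxcr3 lies at 1.34 or below in both libraries.

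The order of the levels was Cxcr4, Ccr7, Cxcr5, Gpr183, Ccr6 and Cxcr3 in both libraries. In the PBS library no counting intervals of neighbours in this order overlapped, and in the SJMHE1 library those of Gpr183 and Ccr6 did. The summed FPKM of the 6 receptors was 479 under PBS and 395 under SJMHE1. Across the receptors the median log2 ratio was -0.27, against -0.01 over the 12433 genes compared. These reached FPKM 1 in either library and were at 0 in neither, and 47.7% of them were higher and 51.9% lower under SJMHE1. At FPKM 10 or more in both libraries the shares were 44.9% and 54.9%. The counts of higher and lower genes in the lists below stand beside these shares.

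Of the 6 receptors, 0 had a log2 ratio above 1, beside 2.43% of the genes compared, and 0 had a ratio below -1, beside 3.57%. These shares rest on 746 genes, a number that was 246 with a pseudocount of 1, 252 when FPKM 1 was required of both libraries and 3385 with no minimum. Cxcr3 lay on the lower bound at the printed values and was counted as not past it. The counting interval lay wholly below 0 for 4 receptors, Ccr7, Cxcr3, Gpr183 and Cxcr4, and for 34.5% of the genes compared. It lay wholly above 0 for 1 receptor, Ccr6, and for 31.0% of the genes compared. At these depths an interval that leaves out 0 is thus common, and the size of a ratio says more than its interval.

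**Figure D2:**
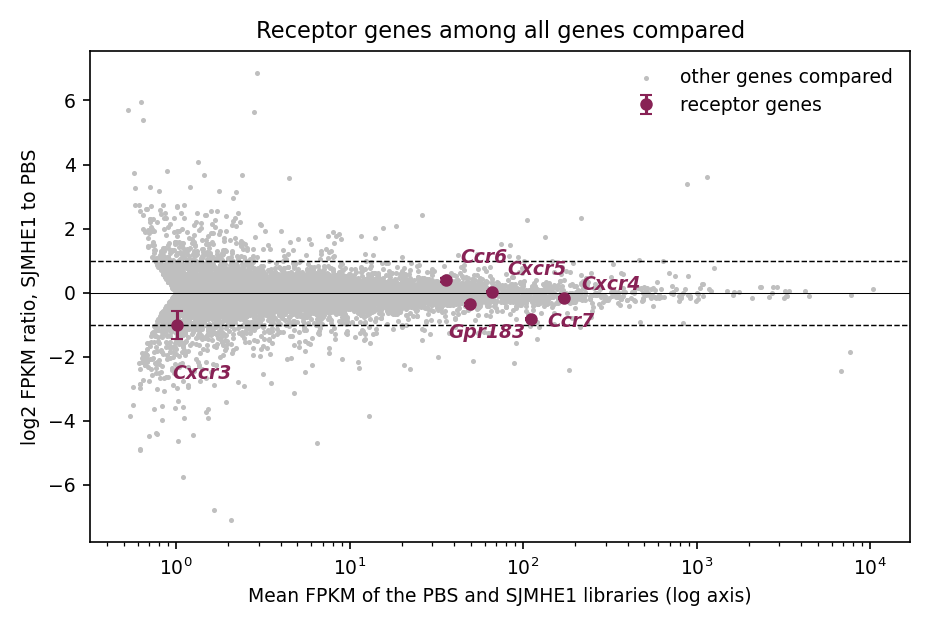
Log2 FPKM ratio of SJMHE1 to PBS against the mean FPKM of the 2 libraries on a log axis, for 12433 genes in grey and the 6 receptors in purple with their 95% counting intervals. Dashed lines mark log2 ratios of -1 and 1. Ccr7, at -0.82, lies at the lower edge of genes of its level, while Cxcr5, at 0.02, lies in the middle.

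Ratios between 2 receptors inside a library do not depend on how the libraries were scaled, and they were computed for all 15 pairs. The interval of the difference left out 0 for 14 pairs, counting error only, and included it for Ccr7 and Cxcr3, with a difference of 0.18 and an interval from -0.24 to 0.61. Ccr7 stood at 2.14 times the level of Cxcr5 under PBS and at 1.20 times under SJMHE1. On the log2 scale the Cxcr5 to Ccr7 ratio was higher by 0.84 in the SJMHE1 library, with an interval from 0.79 to 0.89. Ccr7 exceeded Ccr6 4.58 times under PBS and 1.96 times under SJMHE1, a difference of -1.22 on the log2 scale with an interval from -1.29 to -1.15. This pair was the farthest apart among the well-expressed receptors.

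Against Cxcr5, Cxcr4 stood at 2.77 under PBS and 2.43 under SJMHE1. Gpr183 was at 0.84 of the Cxcr5 level under PBS and at 0.64 under SJMHE1. Ccr6 was at 0.47 and 0.61. Since Cxcr5 itself was at 66.1 and 67.1, these relative levels largely restate the ratio of each receptor. They are RNA levels of 1 pooled library per group, and the position of B cells was not measured.

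**Figure D3:**
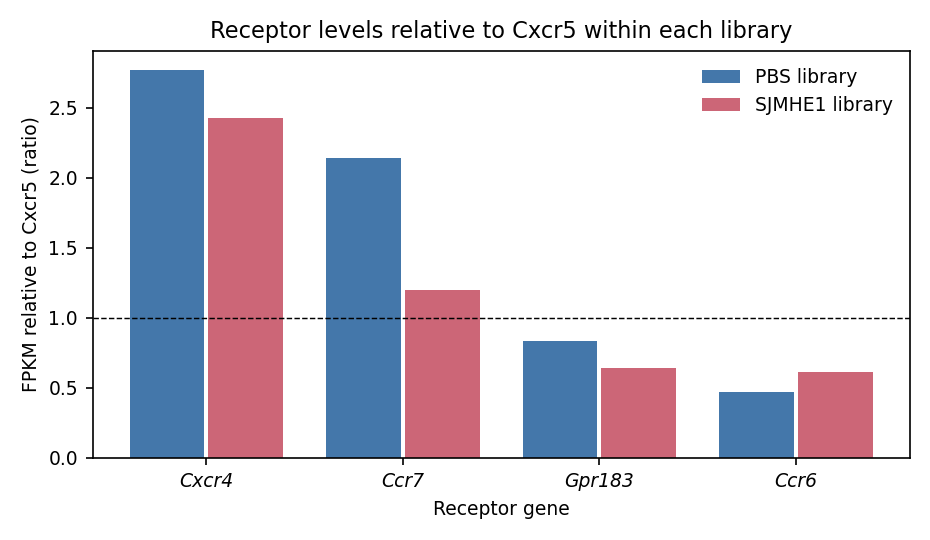
FPKM of Cxcr4, Ccr7, Gpr183 and Ccr6 divided by the FPKM of Cxcr5 in the same library, as bars from 0, with the dashed line at equal levels. There are no replicates and no error bars. Ccr7 is at 2.14 under PBS and 1.20 under SJMHE1, and Ccr6 at 0.47 and 0.61.

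Of 19 further chemoattractant receptors, 6 were abundant enough to be compared, and 3 were higher and 3 lower in the SJMHE1 library, with 0 past a log2 ratio of 1. Their summed FPKM over all 19 was 30.0 under PBS and 26.5 under SJMHE1, below the level of Ccr6 alone in each library. The lowest ratio was that of Ccrl2, a receptor that binds chemerin without signalling, with FPKM values of 5.26 and 2.68 and a log2 ratio of -0.97. Ackr2, a scavenger of inflammatory chemokines, had the highest, at 0.26, with FPKM values of 2.47 and 2.95. Ccr1 had values of 8.76 and 10.1, and Cxcr2, a neutrophil receptor, had 4.81 and 3.71. Among the genes for the ligands and for the enzymes that make or break down the oxysterol ligands of GPR183, 10 of 11 were analysed here. None of these 10 reached an FPKM of 1 in either library, and 3 were listed at 0 under PBS and 4 under SJMHE1. The highest value was that of Hsd3b7, an enzyme that breaks down the ligand, named here after its values were seen. It had an FPKM of 0.27 from 42 counts under PBS and 0.99 from 161 counts under SJMHE1, which is 1.87 on the log2 scale (interval 1.38 to 2.40).

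The KEGG annotation deposited with the table places 5 of the receptors, all but Gpr183, among 183 genes of the chemokine signaling pathway. Of the 105 of these genes that were compared, 43 were higher and 62 lower in the SJMHE1 library, with a median of -0.06. A log2 ratio above 1 was found for 0 of them and below -1 for 5. Over all genes compared, 47.7% were higher, 51.9% lower, 2.43% above 1 and 3.57% below -1. Ccr6 ranked 1 from the highest ratio among these 105 genes. This list was taken up after the values were seen. From the lowest, Cxcr3 ranked 6 and Ccr7 ranked 9.

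Genes acting with or after the receptors gave a median of -0.13 over 32 compared, with 9 higher and 23 lower. Over all genes compared 51.9% were lower and 3.57% lay below -1, and 54.9% were lower at FPKM 10 or more in both libraries. The 2 past the threshold, both lower, limit G protein signalling from chemokine receptors. Rgs1 had an FPKM of 13.5 under PBS and 5.88 under SJMHE1, a log2 ratio of -1.20, and Rgs13, which marks germinal centre B cells, had 7.78 and 3.45, a ratio of -1.17. The highest ratio of this list was 0.35, for the Rap activator Rasgrp3, at 48.9 and 62.4. The most abundant genes of the list had ratios of -0.19 for the actin regulator Coro1a, -0.25 for the GTPase Rac2 and -0.14 for the receptor kinase Grk2.

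Among 16 genes of egress, positioning and adhesion, 7 were higher and 9 lower, with a median of -0.05 and 1 gene past the threshold. That gene was S1pr2, a receptor that confines B cells to germinal centres, at 1.56 under PBS and 0.63 under SJMHE1, a log2 ratio of -1.31. S1pr3, a receptor of marginal zone B cells, had the highest ratio, 0.59, at 10.2 and 15.3. S1pr1, the receptor for exit into blood, had 76.5 and 89.2, and the integrin gene Itgb7 had 84.1 and 71.2. Of 14 transcription factors tied to B cell position, 5 were higher and 9 lower, none past the threshold. Klf2, which promotes recirculation of B cells, had nearly equal values of 491 and 486. The NF-κB gene Nfkb2 had the highest ratio, 0.39, and Irf4 the lowest, -0.37. Pou2af1, which encodes OBF-1, had a ratio of 0.23. Pou2f2, which encodes Oct-2 and is named here after its values were seen, was lower, at 25.9 and 22.1, with a ratio of -0.23 and an interval from -0.26 to -0.19.

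Markers of other cells and of B cell subsets also differed between the libraries. For scale, 51.9% of all genes compared were lower, 3.57% lay below -1 and 2.43% above 1. Of 14 T cell markers, 12 were compared, all 12 were lower in the SJMHE1 library and 10 lay below -1, with a median of -1.64. Cd4 was at 4.25 and 1.28 and Cd8a at 1.63 and 0.35. Lck, the most abundant of the list, was at 27.9 and 25.2. The summed FPKM of the T cell list was 59.9 under PBS and 35.4 under SJMHE1 and, without Lck, 32.0 and 10.2. None of these markers was at 0. T cells also carry Ccr7 and Cxcr3. The part of RNA from T cells or other non-B cells in the ratio of any of the receptors, Gpr183 and Cxcr4 included, was not tested. The 4 NK cell markers compared, of 7, had a median of -1.19, and Gzma was at 6.57 and 2.96. The 3 dendritic cell markers compared, of 8, had a median of -1.0, and Itgax was at 3.23 and 1.61. Some T cell, NK cell and dendritic cell markers, among them Cd3e, Nkg7 and Flt3, reached FPKM 1 under PBS only. Passing through PBS alone favours a lower ratio. With an FPKM minimum of 0.1 the medians of these lists, in that order, were -1.85, -1.22 and -0.93. Of the dendritic cell markers not compared, Zbtb46 was higher, at 0.44 and 0.65, and Xcr1, Clec9a, Cd209a and Batf3 were lower. Summed over each list, NK cell markers gave 14.4 and 6.67 and dendritic cell markers 8.80 and 3.94. One dendritic cell marker, Batf3, was listed at 0 in the SJMHE1 library. The macrophage list had 5 higher and 4 lower genes of 9 compared with summed values of 119 and 63.6, most of it Lyz2 at 88.8 and 37.4. The neutrophil list had 4 higher and 4 lower genes, and S100a9 was at 196 and 266.

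The germinal centre list, whose cells depend on Cxcr4 and Cxcr5 for their position, had 8 of 9 genes lower, 4 of them below -1, with a median of -0.64. Among these 4 are S1pr2 and Rgs13, which were already given above under other lists. Bcl6, also 1 of the transcription factors above, was the only higher gene of the list, at 11.1 under PBS and 13.5 under SJMHE1. Of 5 follicular B cell genes 3 were higher and 2 lower, among them Ighd at 734 and 793 and Klf2 at 491 and 486. Marginal zone genes had a median of -0.0083 over 7, with 3 higher and 4 lower. Cr2, at 136 and 218, had the highest ratio of that list, 0.68. The general B cell list had a median of 0.01 over 10 genes, with 7 higher and 3 lower. Its lowest ratio, -0.11, was that of Cd74, at 4643 and 4297. In the plasma cell list 5 of 6 genes were lower, with Jchain at 388 and 313. Early response genes, which respond within minutes to stimulation or handling, had 7 higher and 5 lower of 12, with a median of 0.04 and Fos at 731 and 1050. All 10 heat shock genes were higher in the SJMHE1 library, with a median of 1.90, 7 of them above 1, and Hspa1b was at 176 and 2127. How these differences between the libraries bear on the receptors was not tested.

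**Figure D4:**
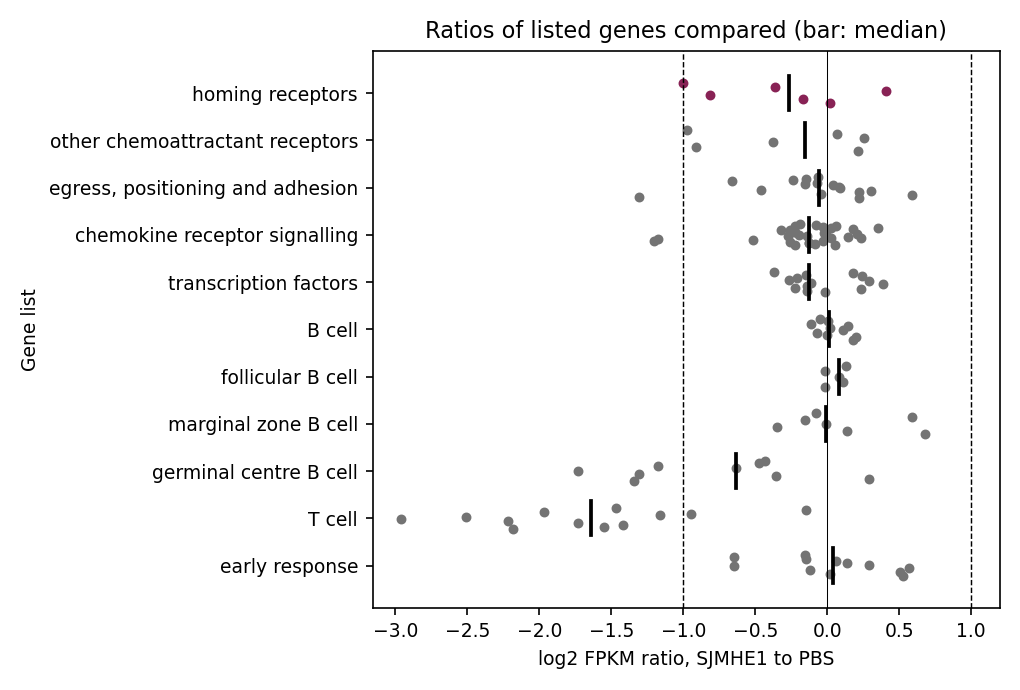
Log2 FPKM ratios of SJMHE1 to PBS for the genes compared in 11 lists, with 1 point per gene, the receptors in colour and a black bar at the median. Dashed lines mark -1 and 1. The receptors spread from -1.0 to 0.41 around a median of -0.27, the B cell list lies close to 0, and the T cell list lies at a median of -1.64.

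Shared sequence with other genes was measured in the annotation. Of all windows of 50 bases in the transcripts of each receptor in GENCODE M21, 1.86% in Cxcr5 and 0% in the other 5 also occurred in a transcript of another gene. Cxcr5 shares 110 exonic bases with Bcl9l on the opposite strand, and it is not stated whether the counting used strand. Gpr183 lies inside Ubac2, on the opposite strand, with 0 shared exonic bases. The coordinates of all 6 receptors in the table were those of GENCODE M21.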

How the data were processed

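RNA of spleen B cells was sequenced by LC-Bio as 1 pooled library per group after removal of ribosomal RNA. The processing notes of the submitters list bcl2fastq 2.0, HISAT2, StringTie, DESeq2, limma and the build mm10, without roles. The authors deposited unnormalized read counts of each gene. Beside them they deposited FPKM, scaled for transcript length and library size and given to 2 decimals. The names of 2 further value columns match no sample of the series, and they were not used, so no comparison with the Control group was made. The receptors, the 17 other gene lists and the FPKM minimum of 10 were chosen with earlier results of these data known, and the promoter motifs after the sequences were read.

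The log2 FPKM ratio was taken without a pseudocount. No edgeR test for counts was run, because each group had 1 library. Exact Clopper-Pearson intervals of the counts gave the interval of each ratio, and a delta-method interval from the 4 counts that of each difference between receptors. Named genes were all receptors and, per pathway list, the genes past the threshold, those with the highest and lowest ratio and the 3 most abundant. Marker lists were named by their most abundant gene plus Cd3e, Cd4, Cd8a and Ms4a1. Some genes that this rule takes are not reported here. The ratio intervals were tested on simulated data. Alternatives were pseudocounts of 0.1 and 1, other FPKM minimums, equal FPKM sums, centring, CPM, TMM and median-of-ratios size factors. Python 3.11.15, scipy 1.17.1, R 4.3.3, edgeR 4.0.16 and DESeq2 1.42.0 were used.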

Additional observations from a re-analysis of the deposited data

How the results depend on the processing

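No paired analysis was possible because every group was sequenced as 1 pooled library. For the same reason no replicate could be left out, and the alternatives against the Control group were not run. The log2 ratios of all 6 receptors kept their direction under every alternative in which they were recomputed, and the number of receptors past a log2 ratio of 1 was 0 in each. Under TMM, centring, CPM, a pseudocount of 0.1 and no minimum on FPKM, all ratios stayed inside their counting intervals. Equal FPKM sums, which add a constant to each ratio by construction, gave 0.10 for Cxcr5, -0.087 for Cxcr4, -0.73 for Ccr7, 0.49 for Ccr6 and -0.28 for Gpr183. Median-of-ratios size factors gave 0.067 for Cxcr5, -0.12 for Cxcr4 and -0.77 for Ccr7. A pseudocount of 1, which shrinks low genes by construction, gave -0.49 for Cxcr3. It took the difference from Cxcr3 to 0.51 for Cxcr5, 0.32 for Cxcr4, -0.32 for Ccr7, where the sign changed, 0.88 for Ccr6 and 0.13 for Gpr183. It also took the median of the T cell list to -0.94, of the NK cell list to -0.74 and of the dendritic cell list to -0.70. With an FPKM minimum of 0.1 the median of the further chemoattractant receptors was -0.49. The number of all genes past a log2 ratio of 1, 746 in the values above, was 246 with a pseudocount of 1, 3385 with no minimum and 252 when FPKM 1 was required of both libraries. The other differences between receptors stayed inside their intervals. The other list medians kept their sign, and that of the macrophage list went from 0.087 to 0.21 with an FPKM minimum of 0.1. Depth limits Cxcr3 alone among the receptors, with 128 and 68 counts.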
